A study of Mus musculus with 36 samples.

Results

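The genes described here encode the proteasome and its helpers. They were taken as every gene whose symbol opens with Psma, Psmb, Psmc, Psmd, Psme, Psmf or Psmg followed by a digit. That rule found 50 of the 25239 genes in the table of P-body and cytoplasm libraries, the same number among 25229 genes in the table of polysome and total RNA libraries, and 54 of 48440 genes in the Ago2 knockout table. The 4 additional symbols in the Ago2 knockout table were the pseudogenes Psmb5-ps, Psmb6-ps, Psmb6-ps2 and Psmb7-ps2, none of which had enough reads to be tested. One match by name, Psmc3ip, encodes a meiotic recombination factor and not a proteasome subunit. It is included in the member counts and medians below.

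The proteasome is the protease that degrades proteins tagged with ubiquitin. Its 20S core is a barrel of stacked alpha and beta rings, with the protease sites on the inner face of the beta rings. The 19S regulatory particle sits on the end of the barrel, where a ring of ATPases unfolds the substrate, the remaining base subunits and the lid bind and remove ubiquitin, and the polypeptide is threaded into the core. Because the subunits are needed in fixed proportions, their genes are a common example of a complex whose parts are made together. In immune and some other cells, Psmb8, Psmb9 and Psmb10 take the place of the usual catalytic subunits to form the immunoproteasome.

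RNA was sequenced from 36 mouse libraries in 16 groups. Of these, P-body and cytoplasm libraries came, with 2 replicates per group, from naive embryonic stem (ES) cells kept in 2i and LIF, from primed ES cells kept in activin A and bFGF, from mouse embryonic fibroblasts (MEFs), from MEFs at day 3 of doxycycline-induced reprogramming, either as controls or with Nudt21 knocked down, and from Ago2 knockout (KO) ES cells. Polysome-bound and total RNA were taken, with 3 replicates per group, from naive ES cells of a Ddx6 degron line, either as controls or with DDX6 removed by dTAG-13. A degron is a tag that leads to degradation of the protein once its inducer, here dTAG-13, is added. P-bodies, membraneless granules of untranslated RNA with its binding proteins, were sorted here as particles carrying a GFP-tagged LSM14A. The ES cells were v6.5, a cross of C57BL/6 and 129S4Sv/Jae. The Ago2 KO and degron lines were grown from single cells. All lines used for sorting, and the degron line too, carried the LSM14A transgene under an EF1a promoter. The study calls the Ago2 KO cells naive. The treated degron cells were harvested hours after dTAG-13 was added, so the DDX6 comparisons are acute. The MEFs carried an inducible cassette of the 4 reprogramming factors, the M2-rtTA activator and a Pou5f1-EGFP reporter, in the uninduced cells as well. The cytoplasm libraries held the pelleted cytoplasmic material before sorting and not the whole cytoplasm.

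Total reads assigned to genes ranged from 6769727 to 31185799 in the libraries of the first 5 cell types, from 13308776 to 29362187 in the polysome and total RNA libraries, and from 15624342 to 17486206 in the Ago2 KO libraries. Nudt21 lay between 5.01 and 5.96 CPM (reads of a gene scaled to a common library total) in the knockdown libraries and between 89.1 and 115 CPM in the day 3 control libraries. Ago2 lay between 2.57 and 4.52 CPM in the KO libraries, against 67.2 to 111 CPM in naive cells, which were counted in another table. A degron acts on the protein, so the Ddx6 RNA level checks nothing. Summed over the list, markers of naive cells reached 1308.77 to 1510 CPM in naive libraries against 100.26 to 134.26 CPM in primed ones, and fibroblast markers reached 7997 to 25319.35 CPM in MEFs against 0.64 to 2.11 CPM in naive cells. One library stood furthest apart: in replicate 2 of the Ago2 KO cytoplasm, the ribosomal RNA gene Rn18s-rs5 alone took 23.97% of the reads. A single gene was prominent in the other Ago2 KO libraries too. There Gm42418 took 3.88% and 7.3% in P-bodies and 10.22% in cytoplasm replicate 1. Outside the Ago2 KO, the top gene took at most 2.57%. The study calls replicates of these assays biological, while the labels do not say which came from separate cultures, and the p-values measure the spread between these samples.

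Proteasome genes are known to be switched on together by the transcription factor Nfe2l1, which binds antioxidant response elements in their promoters. The core of that element, TGACNNNGC, was searched on both strands in the RefSeq promoter windows of GRCm38.p6, which hold 250 bases before and 50 bases after each gene start. Of the members, 42 had a window. The letters stood in 6 of these (14.3%), against 13.99% of all 27025 genes with a window, so the share among members was near the background. The windows below show the 4 members with a match less than 50 bases from the start, with the matching letters in capitals and the gene strand written 5′ to 3′. For Psme4 the match is on the opposite strand and reads as the reverse complement.
Psmb5 (chr14:54618023-54618052, minus strand, match from -47): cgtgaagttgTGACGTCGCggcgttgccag
Psmb6 (chr11:70525338-70525367, plus strand, match from -9): ctaaagagagTGACGGAGCgctttacgacg
Psmd9 (chr5:123228149-123228178, plus strand, match from -31): atctagccggTGACCCCGCccacttccaag
Psme4 (chr11:30771758-30771787, plus strand, match from -7): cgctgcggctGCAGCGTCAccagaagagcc
Psmb5 and Psmb6 encode catalytic beta subunits, Psmd9 an assembly chaperone and Psme4 a core activator. The other 2 matches, in Psmc6 and Psmd12, lay more than 200 bases before the start. A second short element, CCAAT, stood in 35.7% of the member windows and in 41.06% of all windows.

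Summed over the members, proteasome RNA took about 1% of the reads. The members together held 0.997% and 1.09% of the reads in naive cytoplasm, 0.863% and 0.862% in primed cytoplasm, 0.754% and 0.796% in MEF cytoplasm, and between 0.991% and 1.02% in the day 3 cytoplasm libraries. In P-bodies the shares were 0.848% and 0.859% in naive cells, 0.994% and 0.98% in primed cells, 1.41% and 1.32% in MEFs and between 1.19% and 1.28% at day 3. The P-body share was therefore below the cytoplasmic share in both naive libraries and above it in both libraries of primed cells, MEFs and each day 3 group. In Ago2 KO cells the shares overlapped, at 0.955% and 0.856% in P-bodies and 0.871% and 0.526% in cytoplasm. In bulk RNA of this kind, fewer cells of a type and less RNA per cell cannot be told apart. The plot of summed levels splits these reads into core and regulatory particle.

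**Figure D1:**
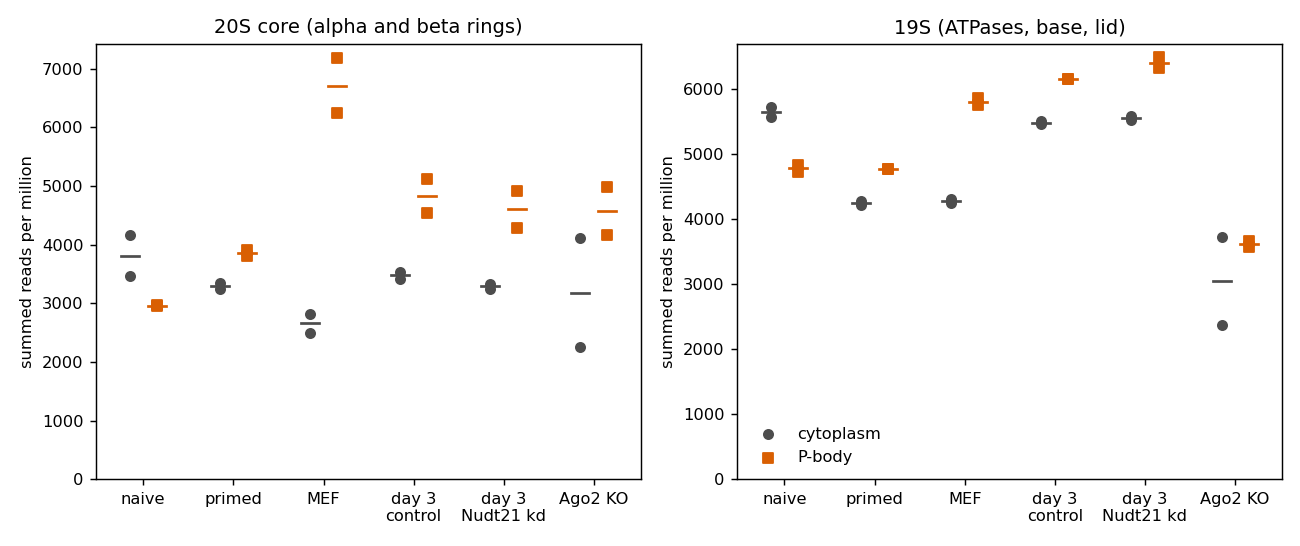
Summed CPM of the 14 alpha and beta ring genes (left) and the 17 regulatory particle genes (right) in every cytoplasm (circles) and P-body (squares) library, with a bar at the mean of the 2 replicates. In MEFs the P-body points lie far above the cytoplasm points for the core, and in naive cells they lie below, while the 2 Ago2 KO cytoplasm libraries are far apart.

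Per length of transcript, the core subunits were not level with each other. Dividing by the longest annotated transcript (GENCODE M21), the 14 constitutive core genes had a median of 177 and 211 RPKM (CPM per kilobase of transcript) in the naive cytoplasm libraries, with a coefficient of variation of 64.7% and 63.7%. Psmb6 was the highest at 572 and 618 RPKM, and Psma3 the lowest at 69.99 and 85.2 RPKM. In both MEF cytoplasm libraries the coefficient of variation of the core was 42.5% and 40.9%. Psma2 and Psma3 have longest transcripts of 2911 and 2846 bases, the longest of the core genes, and their place on this scale depends on that choice of transcript.

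In naive cells, fewer proteasome RNAs were enriched in P-bodies than depleted, and most did not pass the test. Of 48 members tested, 4 were enriched in P-bodies and 12 were depleted, beside 22.6% of all genes enriched and 15.4% depleted (edgeR quasi-likelihood test, adjusted p under 0.05). The median log2 ratio of P-body to cytoplasm was -0.08 for members and -0.06 for all genes. Among 2938 other genes with transcripts of 1000 to 2000 bases, the median was -0.255, with 10.04% enriched and 19.4% depleted. The 28 members in that range had a median of -0.048, with 2 enriched and 6 depleted, so they were not lower than other genes of like length. None of the 7 alpha ring genes passed the test, while 4 of the 7 beta ring genes were depleted, among them Psmb5, which carries the chymotrypsin-like site.

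Psmd1, the large scaffold of the 19S base, stood out among the regulatory genes of naive cells. Its P-body libraries held 731 and 749.7 CPM and its cytoplasm libraries 476 and 494.5 CPM. The groups did not overlap, and P-bodies lay wholly above cytoplasm in 36.4% of all genes. The log2 ratio of Psmd1 was 0.83 (SE 0.09, edgeR adjusted p = 0.001917). Leaving out either P-body library ended that call with the ratio at 0.85 or 0.82. Psma8, the testis form of an alpha subunit, was at 33.61 and 37.48 CPM against 14.56 and 12.49 CPM, a log2 ratio of 1.61 (SE 0.17, adjusted p = 0.001637). The third named enriched gene was the ATPase Psmc6 at 0.69 (SE 0.10). At the other end, the core assembly chaperone Psmg4 was at 14.58 and 15.28 CPM against 26.31 and 35.43 CPM, a log2 ratio of -0.82 (SE 0.18, adjusted p = 0.01771). The lid subunits Psmd8 and Psmd3 were depleted too, at -0.67 and -0.65, as was Psmf1, an inhibitor of the core, at -0.54.

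In naive cells the call count depended on which library was left out. Without either P-body library fewer members were called, and without either cytoplasm library more. Calls over all genes moved the same way, so the number of naive calls rests on single libraries. The member median was -0.13 and -0.07 without P-body replicate 1 or 2, and -0.11 and -0.06 without cytoplasm replicate 1 or 2. By DESeq2 4 members were enriched and 8 depleted, beside 3258 and 2181 of all 15630 genes, and Psmb5 was not among these members. The reads of the 2 naive cytoplasm libraries differed by 28 chi-square units for each degree of freedom, those of the 2 P-body libraries by 1.78.

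In primed cells, more proteasome RNAs were enriched in P-bodies than depleted. Of 49 members tested, 29 were enriched and 3 depleted, beside 26.5% and 24.2% of all genes, and the member median was 0.22 against 0.00 for all genes. The sizes were small. Psma1, an alpha subunit, was at 305 and 302.5 CPM in P-bodies against 275 and 265 CPM in cytoplasm, which did not overlap, for a log2 ratio of 0.20 (SE 0.05, edgeR adjusted p = 0.006261). P-bodies lay wholly above cytoplasm in 38.1% of all genes. Among the 14 constitutive core genes 10 were enriched, and among the 17 regulatory particle genes 12 were enriched and 1, Psmd3, was depleted at -0.58.

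The 3 largest ratios in primed cells belonged to Psmb8, Psme2b and Psme2, which interferon is known to induce. Psmb8, the immunoproteasome counterpart of Psmb5, had P-body values of 39.15 and 41.45 CPM against 14.62 and 14.22 CPM in cytoplasm, a log2 ratio of 1.52 (SE 0.12, edgeR adjusted p = 4.11e-07). Psme2, a subunit of the PA28 activator of the core, was at 155 and 156 CPM against 80.4 and 78.8 CPM, a log2 ratio of 1.0005 (SE 0.07, adjusted p = 1.346e-07). Its near copy Psme2b had a ratio of 1.32, but reads from these near-identical genes can be assigned to either, so the split between them is uncertain. Psmb9 and Psmb10, at 0.31 (adjusted p = 0.1046) and 0.23 (adjusted p = 0.05628), did not pass the test.

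In MEFs, the whole core was enriched in P-bodies. Of 49 members tested, 39 were enriched and 3 depleted, beside 26.6% and 28.7% of all genes, and the member median of 0.91 stood beside 0.03 for all genes. All 14 constitutive core genes were enriched, with log2 ratios from 0.91 for Psma4 to 1.56 for Psmb3, as were all 6 ATPases and all 7 assembly chaperones. The ratios are plotted by role. Lung marker genes, whose summed level was 0 CPM in both MEF cytoplasm libraries, reached 5.53 to 85.96 CPM in the MEF P-body libraries, and their part in these ratios was not tested.

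**Figure D2:**
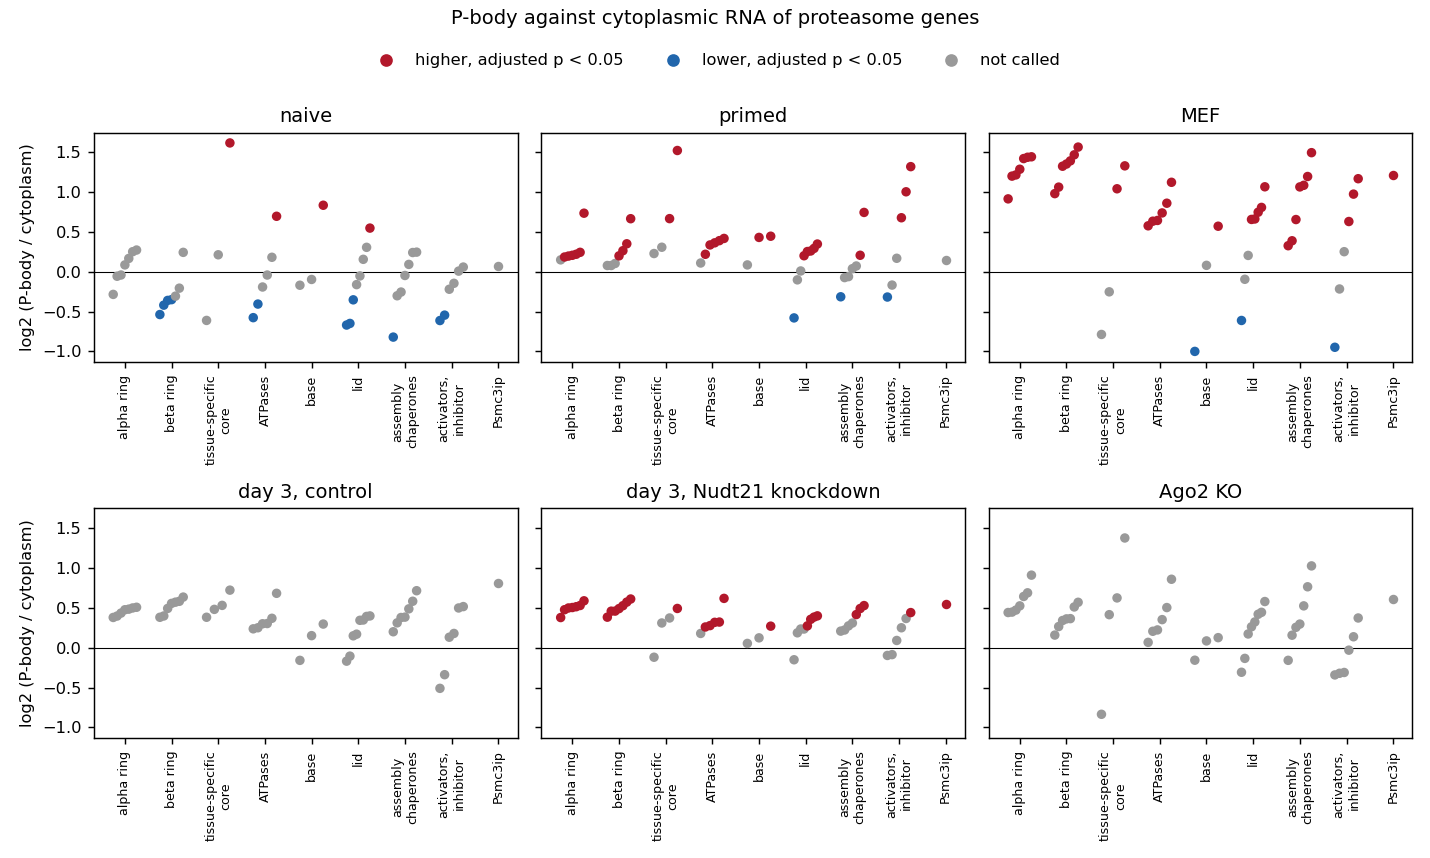
Log2 ratio of P-body to cytoplasmic RNA for each tested proteasome gene, grouped by role, in 6 cell types. Each point is 1 gene, red where enriched and blue where depleted at an edgeR adjusted p under 0.05, and grey where not called. In MEFs the alpha and beta ring genes all lie between 0.91 and 1.56, while in naive cells they lie between -0.54 and 0.27.

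Psmb3 and Psmb5 give the size of the MEF ratios. Psmb3, a beta ring subunit, was at 617 and 525.5 CPM in MEF P-bodies against 172.5 and 210.5 CPM in cytoplasm, with an SE of 0.12 on its ratio (edgeR adjusted p = 9.202e-06). Psmb5 was at 491 and 417.5 CPM against 167 and 176 CPM, a log2 ratio of 1.39 (SE 0.10). Neither pair of groups overlapped, and P-bodies lay wholly above cytoplasm in 39.1% of all genes. The chaperone Psmg4, depleted in naive P-bodies, was at 25.6 and 24.98 CPM against 9.075 and 8.695 CPM in MEFs, a log2 ratio of 1.49 (SE 0.13).

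The 3 depleted members in MEFs were a base, a lid and an activator gene. Psmd2, the second scaffold of the 19S base, was at 333 and 323 CPM in MEF P-bodies against 663 and 632 CPM in cytoplasm, a log2 ratio of -0.999 (SE 0.08, edgeR adjusted p = 1.142e-05). Psme3, the nuclear form of the PA28 activator, was depleted at -0.95 (SE 0.09), and Psmd3 at -0.61 (SE 0.09). Psmd1, with 486 and 561 CPM in P-bodies against 495 and 483 CPM in cytoplasm, overlapped between fractions and did not pass the test (0.08, SE 0.09, adjusted p = 0.4918).

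Transcript length went along with these ratios. The longest transcript of the members tested in MEFs had a median of 1440 bases, against 3115.5 bases over all genes with an annotated coding transcript, and 46 of the 49 were below that value. Across the MEF members, the log2 ratio correlated with length at a Spearman rho of -0.579, and across all genes at -0.485; these are descriptions across genes, which are not independent replicates. Among the 2852 other genes whose transcripts measured 1000 to 2000 bases, the median log2 ratio in MEFs was 0.61 and 52.9% were enriched. The 29 members in that range had a median of 0.86, and 26 of them were enriched. In naive cells the rho across all genes was 0.231 with length and -0.632 with GC content, and across members 0.266 and -0.618. The part of length or GC content in the member ratios was not tested.

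At day 3 of reprogramming, the core was again enriched in the knockdown cells. In the Nudt21 knockdown, 30 of 49 members were enriched and 0 depleted by edgeR, beside 9.04% and 12.8% of all genes, with a member median of 0.37 against 0.00. Among 2873 other genes with transcripts of 1000 to 2000 bases, the median was 0.202, with 16.43% enriched and 1.91% depleted. The 29 members in that range had a median of 0.377, with 22 enriched and 0 depleted. By DESeq2, 31 were enriched and 0 depleted, beside 1569 and 1930 of all 15995 genes. At an unadjusted p under 0.05 there were 38 members, beside 5575 of all genes. All 14 constitutive core genes were enriched, with ratios from 0.38 to 0.61. Psmb5 was at 326 and 281 CPM in P-bodies against 208 and 192 CPM in cytoplasm, a log2 ratio of 0.61 (SE 0.10, edgeR adjusted p = 0.002761). Psmc6, with a ratio of 0.62, and Psma2, with 0.59, completed the largest 3. Without cytoplasm replicate 1 or 2 of this group, fewer members and fewer of all genes were called. The member median was then 0.32 and 0.39, against 0.01 for all genes in both.

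In the day 3 control no member was called by edgeR. The member median was 0.38 against -0.01, while 0.196% of all genes were enriched and 0.45% depleted. Among other genes with transcripts of 1000 to 2000 bases the median was 0.235, against 0.382 for the 29 members in that range. Psmb5 was at 305.5 and 365 CPM in P-bodies against 221 and 242 CPM in cytoplasm, for a log2 ratio of 0.55 (SE 0.14, edgeR adjusted p = 0.1006). Its groups did not overlap, and P-bodies lay wholly above cytoplasm in 29.2% of all genes. Over the 12 members chosen for naming, the ratios ranged from -0.51 for Psme3 to 0.72 for Psmb9. At an unadjusted p under 0.05 there were 33 members, beside 3899 of all 15786 genes. DESeq2 called 20 members enriched and 1 depleted, beside 939 and 1166 of all genes. Without P-body replicate 1 or 2, more members and more of all genes were called. The member median was then 0.46 and 0.29, against -0.04 and -0.004 for all genes. The difference in enrichment between knockdown and control was tested over the 4 groups. It was called for 0 members by edgeR and 0 by DESeq2, where edgeR called 0% of all genes higher and 0.0118% lower. At an unadjusted p under 0.05 there were 2 members, beside 819 of all 16973 genes. For Psmb5 the difference was 0.08 (SE 0.18), and over the 12 members chosen for naming it ranged from -0.32 for Psmb9 to 0.45 for Psmf1.

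In Ago2 KO cells no member was called by edgeR, beside 5.47% of all genes enriched and 1.05% depleted. DESeq2 called 3 members enriched and 0 depleted, beside 1215 and 516 of all 16808 genes. At an unadjusted p under 0.05 there were 5 members, beside 4030 of all genes. With a replicate block 7 members were enriched and 0 depleted, beside 2565 and 1613 of all genes. The member median of 0.35 rested on the cytoplasm library with the high ribosomal share: without that library it was 0.04, against -0.02 for all genes. Without the other cytoplasm library the member median was 0.58, against -0.003 for all genes. More members and more of all genes were called there. Psma1 was at 329.5 and 282 CPM in P-bodies against 266 and 155 CPM in cytoplasm, with a log2 ratio of 0.52 (SE 0.31, edgeR adjusted p = 0.3379). The ratios of the 12 members chosen for naming ranged from -0.84 for Psmb8 to 1.37 for Psmb10.

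The enrichment of proteasome RNA differed between cell types when the difference itself was tested. Naive cells had a lower ratio than primed cells for 24 members and a higher one for 1, beside 11.4% and 13.9% of all genes. Without primed P-body replicate 1 or 2, or naive P-body replicate 1, fewer members and fewer of all genes were called. Without naive cytoplasm replicate 2, more of both were called. The member median was -0.34 and -0.32 without primed P-body replicate 1 or 2, and -0.45 without naive cytoplasm replicate 2. Against MEFs, naive cells had a lower ratio for 36 members and a higher one for 3, beside 19.8% and 21.5% of all genes. The member medians were -0.45 and -1.17, and those of all genes -0.04 and -0.17. Among other genes with transcripts of 1000 to 2000 bases, the medians were -0.341 and -1.016. Of those genes, 19.69% and 42.4% were lower in naive cells. The 29 members in that range had medians of -0.549 and -1.17, and the part of length was not tested. Both tests use the same naive libraries, and the libraries of the enrichment tests above, so they are not independent. All 14 constitutive core genes differed between naive cells and MEFs, by -0.94 to -2.29 on the log2 scale. The contrasts were scaled over 4 groups together, so they need not equal the gap between the separate ratios. For Psmb3 those were -0.54 in naive cells and 1.56 in MEFs, beside -2.29 here. With 1 fit over all groups the member medians were -0.32 and -0.97, and those of all genes 0.015 and 0. With DESeq2 the member medians were -0.38 and -1.13. The 3 genes with a higher ratio in naive cells were Psme3 at 0.76, Psmd2 at 0.64 and Psmd1 at 0.56. The plot against transcript length sets these genes among the others.

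**Figure D3:**
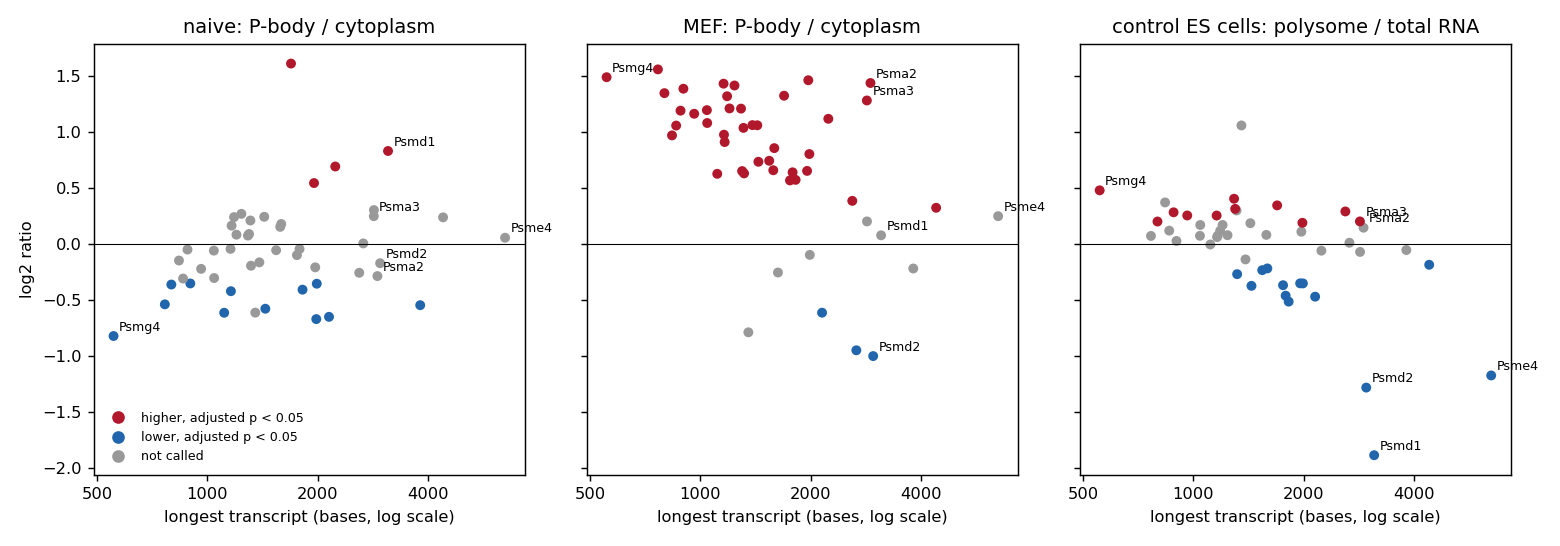
Log2 ratio of each tested proteasome gene against the length of its longest annotated transcript (log scale) for P-bodies in naive cells and MEFs and for polysomes in control ES cells, coloured as enriched, depleted or not called. In MEFs the shorter transcripts have the higher ratios, and Psmd1, Psmd2 and Psme4 lie at the bottom of the polysome panel.

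The cytoplasm libraries were then compared between cell types, so each of them serves here and in an enrichment test. From naive to primed cells, 22 members were lower and 5 higher, beside 22.1% and 21.6% of all genes, with a member median of -0.36 against 0.00. Among 3030 other genes with transcripts of 1000 to 2000 bases, the median was -0.204, with 28.71% lower and 15.12% higher. The 29 members in that range had a median of -0.477, with 13 lower and 4 higher. The lower members included 12 of the 17 regulatory particle genes. Psmc4, an ATPase, was at 331 and 339.7 CPM in naive and at 177 and 181 CPM in primed cytoplasm, a log2 difference of -1.11 (SE 0.11, edgeR adjusted p = 0.0009925). The ATPase Psmc3 and the lid subunit Psmd13 were lower by similar amounts, at -1.06 and -1.01. Without primed cytoplasm replicate 1 or 2, fewer members and fewer of all genes were called, with member medians of -0.42 and -0.33.

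The 5 members higher in primed cytoplasm included the 3 immunoproteasome genes. Psmb8 was at 0.31 and 0 CPM in naive cytoplasm, 4 reads in all, and at 14.62 and 14.22 CPM in primed cytoplasm, 213 reads, which is a ratio of 90.4 with a 95% interval of 34.8 to 335 that covers counting error only. Psmb10 was at 12.45 and 7.297 CPM in naive and at 46.38 and 46.26 CPM in primed cytoplasm, a log2 difference of 2.02 (SE 0.29, edgeR adjusted p = 0.003503). Psmb9 was higher by 1.82 (SE 0.45, adjusted p = 0.02212). The other 2 were the assembly chaperone Psmg2, at 1.12, and Psme2, at 0.55. Tap1, a peptide transporter of antigen presentation, was at 11.9 to 12.4 CPM in naive and 53.6 to 70.2 CPM in primed cytoplasm, and its part in these differences was not tested. Ptprc, which marks blood cells, was at most 0.25 CPM in both.

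**Figure D4:**
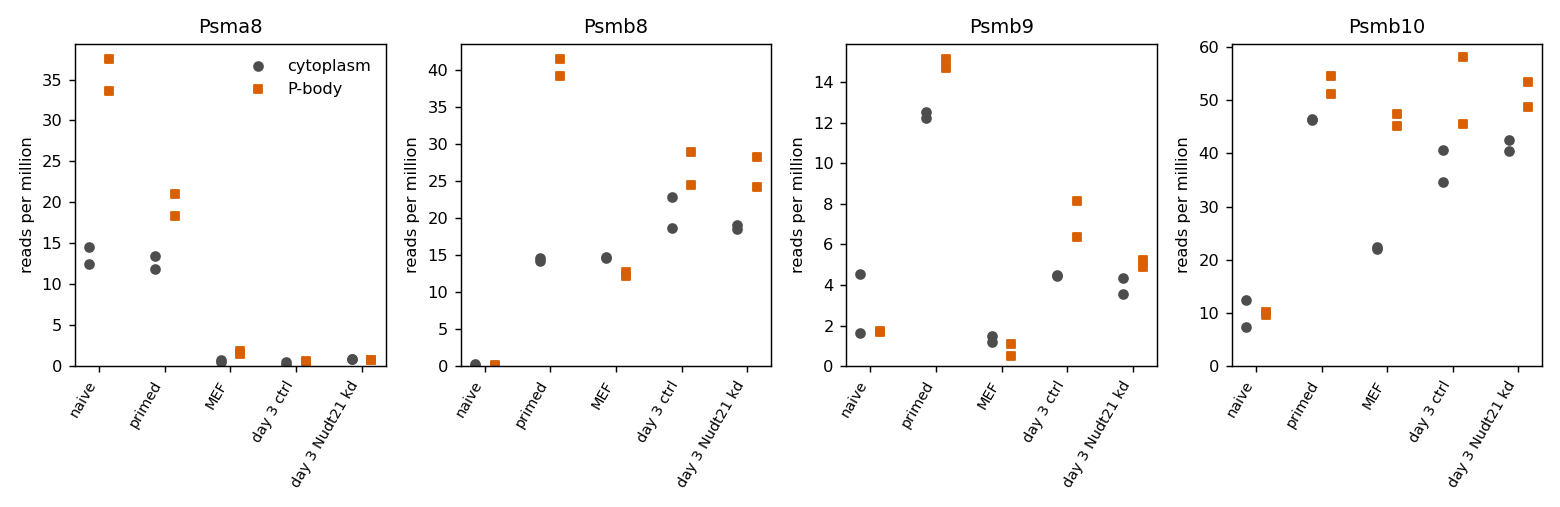
CPM of Psma8, Psmb8, Psmb9 and Psmb10 in each cytoplasm (circles) and P-body (squares) library of 5 cell types. Psma8 is high in naive and primed ES cells and near 0 in MEFs, while Psmb8 and Psmb10 are lowest in naive cells.

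Between naive cells and MEFs, 11 members were higher in MEF cytoplasm and 15 lower, beside 35.9% and 36% of all genes, so neither share exceeded the background. Without MEF cytoplasm replicate 1 or 2, fewer members and fewer of all genes were called, with member medians of -0.125 and -0.215. Psma8 was at 0.481 and 0.7965 CPM in MEFs against 14.56 and 12.49 CPM, a log2 difference of -4.15. Psmb8 was at 14.62 and 14.73 CPM in MEFs, a ratio to naive cytoplasm of 92.1 (95% interval 35.9 to 339, counting error only). Psmb10 was higher by 1.41 (SE 0.29, edgeR adjusted p = 0.008024), whereas Psmb9, at 1.186 and 1.493 CPM in MEFs and 1.644 and 4.54 CPM in naive cells, did not pass the test. Ptprc was at most 0.2 CPM in MEF cytoplasm. Psmb11, the thymus form, was at 0 CPM in most libraries and at most 0.384 CPM in any. The chaperones Psmg1 and Psmg4 were lower in MEFs, by -1.38 and -1.54. Psmc3ip, the match that is not a proteasome gene, was at 5.07 and 5.04 CPM in MEFs against 31.79 and 38.43 CPM in naive cells, a log2 difference of -2.54.

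From MEFs to the day 3 control, 34 members rose in the cytoplasm and 4 fell, beside 35.5% and 33.7% of all genes, with a member median of 0.29 against 0.04. Among 2870 other genes with transcripts of 1000 to 2000 bases, the median was 0.265, with 45.12% higher and 24.63% lower. The 29 members in that range had a median of 0.364, with 23 higher and 1 lower. The part of length was not tested. Psme1, the partner of Psme2 in the PA28 activator, rose from 51.5 and 53.46 CPM to 115 and 126 CPM, by 1.04 (SE 0.07, edgeR adjusted p = 2.687e-09). Psmb9 rose by 1.57 (SE 0.26), and the chaperones Psmg4 and Psmg3 by 1.13 and 0.96. The 4 that fell were Psmc6, by 0.78, Psmd8, by 0.53, Psmd5, by 0.31, and Psmd1, by 0.29. Fibroblast markers summed to 23070.88 to 25319.35 CPM in MEF and 4556.06 to 4635.84 CPM in day 3 cytoplasm, and their part in these differences was not tested.

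On polysomes of control ES cells, most regulatory particle genes were lower than in total RNA. The measure is the log2 ratio of polysome-bound to total RNA. Of 48 members tested, 11 were higher on polysomes and 14 lower, beside 18.8% and 24.1% of all genes, and the member median was 0.08 against 0.02. Among the 14 constitutive core genes 3 were higher, a share near that of all genes, and 0 lower, with ratios from 0.03 to 0.26. Among the 17 regulatory particle genes 12 were lower and 1, Psmd8, was higher, with a median of -0.35. Of the ATPases 5 of 6 were lower.

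The lowest ratios belonged to the 2 scaffolds of the base and to Psme4, the PA200 activator. Psmd1 was at 98.9, 93.3 and 99.03 CPM on polysomes and at 329.7, 333 and 293 CPM in total RNA, a log2 ratio of -1.88 (SE 0.07, edgeR adjusted p = 3.013e-12). Psmd2 was at 224, 214 and 229 CPM against 479.7, 481 and 481 CPM, a ratio of -1.28 (SE 0.06). Psme4 was at 127, 125 and 121 CPM against 262, 273 and 213 CPM, a ratio of -1.17 (SE 0.08). None of the 3 overlapped between polysome and total RNA, and polysome values lay wholly below total RNA in 27.4% of all genes. The highest called ratios were those of Psmg4 at 0.48, Psmc3ip at 0.41 and Psma8 at 0.35.

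**Figure D5:**
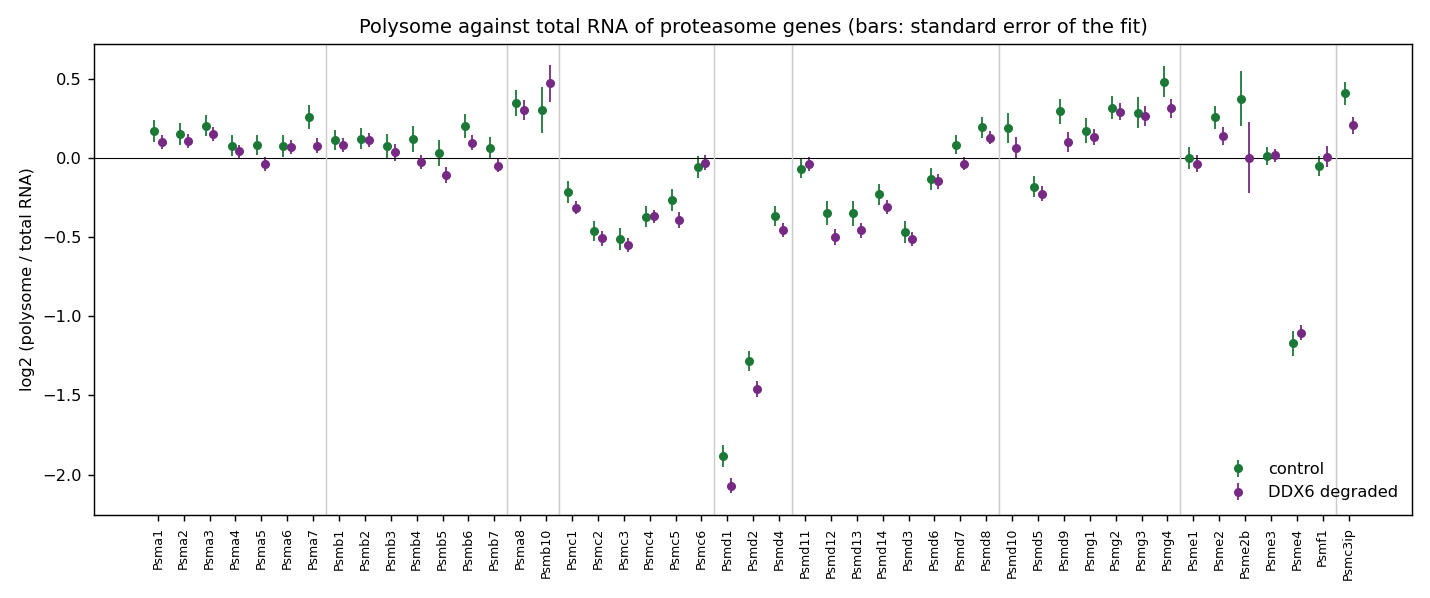
Log2 ratio of polysome-bound to total RNA for the tested proteasome genes in control ES cells (green) and after DDX6 removal (purple), in order of role, with the standard error of the edgeR fit as bars. Psmb9 is left out for its few reads. Psmd1, Psmd2 and Psme4 lie below -1 in both conditions, while the alpha and beta ring genes lie near 0.

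After DDX6 removal the same 3 genes had the lowest ratios. In the degron cells 11 members were higher and 15 lower on polysomes, beside 24% and 26.8% of all genes, with a member median of -0.01 against 0.02. Psmd1 was at 93.01, 86.6 and 87.7 CPM on polysomes and at 345, 313 and 331 CPM in total RNA, a ratio of -2.07 (SE 0.05, edgeR adjusted p = 1.343e-19). Psmd2 and Psme4 had ratios of -1.46 and -1.11. The change in ratio upon DDX6 removal was called for 0 members by edgeR and 0 by DESeq2. By edgeR 0% of all genes were called in either direction. At an unadjusted p under 0.05 there were 4 members, beside 843 of all 16345 genes. For Psmd1 that change was -0.19 (SE 0.08, adjusted p = 0.8791). Polysome ratios also went along with length, with a rho of -0.506 across control members and -0.377 across all genes. Among 2903 other genes with transcripts of 1000 to 2000 bases, the control median was 0.172, with 28.73% higher and 7.92% lower. The 28 members in that range had a median of 0.078, with 5 higher and 9 lower. The part of length was not tested.

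In total RNA, no member was called between degron and control cells by edgeR or DESeq2, beside 1.24% of all genes higher and 2.07% lower. The member median was 0.09 against 0.01. Among other genes with transcripts of 1000 to 2000 bases the median was 0.08, against 0.101 for the 28 members in that range. At an unadjusted p under 0.05 there were 9 members, beside 2981 of all 15380 genes. Psma1 was at 238.5, 223.5 and 222 CPM after DDX6 removal and at 221, 216 and 205 CPM in control cells, a log2 difference of 0.09 (SE 0.05, adjusted p = 0.3724). The differences of the members chosen for naming ranged from -0.15 for Psme4 to 1.37 for Psmb9, which was under 1 CPM in every one of these libraries. Without replicate 3 of the control total RNA, more members and more of all genes were called, the members mostly as higher. The member median was then 0.12, against 0.01 for all genes.

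Other genes of the pathway went both ways. The list held 23 symbols, including alternative names, for assembly factors, ubiquitin receptors, shuttle proteins and regulators, of which 20 were tested in each comparison. In MEFs 6 were enriched in P-bodies and 9 depleted, where 26.6% and 28.7% of all genes were. The enriched ones included Pomp, the maturation factor of the core, Sem1, a small lid subunit, at 1.61, and Adrm1, a ubiquitin receptor of the base, at 0.94, while Nfe2l1 was depleted at -1.92 and Ddi2, the protease that activates it, at -1.48. In naive cells 3 were enriched and 6 depleted, where 22.6% and 15.4% of all genes were, with Usp14, a deubiquitinase bound to the base, at 1.80 and the shuttle protein Rad23b at -1.15. On polysomes of control cells 4 were higher and 8 lower, where 18.8% and 24.1% of all genes were, among the latter Ubqln2 at -1.22, Ecpas at -1.19 and Nfe2l1 at -0.79.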

How the data were processed

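Reads of the P-body and cytoplasm libraries were aligned to mm10 with HISAT2 and counted by the authors with featureCounts on refGene exons. The polysome, total RNA and Ago2 KO tables held salmon estimated counts. All deposited values were estimated counts per gene, and fractions (up to 25.7% of the values in a library) were rounded. The authors' 10 tables of DESeq2 comparisons were not used, and 0 columns of sample values were left out. The read depth of each table is given with the results.

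Each of 16 comparisons was fitted with the two-sided quasi-likelihood test of edgeR (4.0.16, R 4.3.3) after TMM scaling, on genes with at least 10 reads over the libraries of the fit. Genes were called at a Benjamini-Hochberg adjusted p under 0.05 over all genes tested. Differences between cell types or conditions were contrasts over 4 groups. DESeq2 (1.42.0), other size factors and filters, a replicate block, 1 fit over all groups and leaving out each library were alternatives. The edgeR step was tested on simulated data, with noise that was set and not taken from these libraries. It recovered 100% of 4-fold changes. Of 1.5-fold changes it recovered 63% for naive P-bodies, 51% for Ago2 KO and 21% for naive minus primed enrichment. For control polysomes it recovered 85%, and for the change upon DDX6 removal 48%. The noise was the same in every simulated comparison, while the real replicates differed unequally. They differed by 306 chi-square units for each degree of freedom in Ago2 KO cytoplasm and by 28 in naive cytoplasm. These rates need not hold for such groups, and the day 3 control was not simulated. A count of 0 calls is therefore no proof of no change. CPM values are reads of a gene scaled to the library total, without TMM factors. The members to be named were 12 in every comparison, given by their range where none was called, plus the 3 called members with the largest change in each direction at a mean of at least 10 CPM; pathway genes, members of small groups and members at the ends of ranges were named after their values were seen. The members and lists were chosen with earlier results of these data known. Groups and replicate numbers came from the sample titles.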

Additional observations from a re-analysis of the deposited data

Results flagged for a closer look

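Each result here is a difference in P-body enrichment between cell types that passed its own test (edgeR contrast over 4 groups). Between naive and primed ES cells, 25 members differed. Among the named genes, the log2 ratio of P-body to cytoplasm was lower in naive cells for Psme2b by -1.60, Psme1 by -1.43, Psme2 by -1.36, Psmb5 by -0.75, Psmd4 by -0.68 and Psmd14 by -0.45, and higher for Psma8 by 0.81. The Psmd14 call was lost with DESeq2 (-0.38) and with the replicate block (-0.45), and the Psma8 call with the replicate block (0.81) and with 1 fit over all groups (0.92).

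Between naive ES cells and MEFs, 39 members differed. The ratio was lower in naive cells for Psmg4 by -2.50, Psmb3 by -2.29, Psmb5 by -1.93, Psmg1 by -1.58, Psma1 by -1.32, Psmb10 by -1.01, Psmd14 by -0.99 and Psmd4 by -0.86. It was higher in naive cells for Psme3 by 0.76, Psmd2 by 0.64 and Psmd1 by 0.56. Psmd4 is a ubiquitin receptor and Psmd14 a deubiquitinase of the regulatory particle. The Psmb10 call was lost without a filter (-0.76), and the Psmd1 call without naive P-body replicate 2 (0.54). The cause of these differences was not tested.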

How the results depend on the processing

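Of the alternatives tried on the counts of called members, 169 stayed within 1.5 times the count given and 31 did not. In the cases given above, the calls over all genes moved as well. No named gene with a call changed sign, but naive P-body calls went from 4 enriched and 12 depleted to 1 enriched and 0 depleted without either P-body library. Polysome calls in control cells went to 19 higher and 14 lower without total RNA replicate 3. Member medians near 0 changed sign, from -0.0139 to 0.0014 on degron polysomes without a filter and from 0.0032 to -0.0206 for the Nudt21 difference with DESeq2. In the day 3 control, where no member was called, DESeq2 called 21, no filter 15, 1 fit over all groups 25 and the replicate block 2. Over all genes DESeq2 called 939 enriched and 1166 depleted there, against 31 and 71 in the main fit. In Ago2 KO, DESeq2 called 3, no filter 2 and the replicate block 7. With 1 fit over all groups, 16 members were called in primed P-bodies, 25 from MEF to day 3 cytoplasm and 1 in total RNA after DDX6 removal. Leaving out 1 library gave 1 to 36 calls in naive P-bodies, 0 to 43 in the day 3 control, 4 to 37 in the Nudt21 knockdown and 0 to 24 in Ago2 KO. It gave 11 to 38 for naive minus primed enrichment (38 without naive cytoplasm replicate 2, 11 without primed P-body replicate 2) and 0 to 4 for the Nudt21 difference (4 without control P-body replicate 1). It gave 7 to 35 for primed minus naive cytoplasm, 13 to 39 for MEF minus naive cytoplasm (13 and 15 without MEF replicate 1 or 2) and 0 to 20 for total RNA. A lone sample left in a group was assumed to vary like the others. Same-numbered samples deviated together with correlations from -0.0634 to 0.495 between P-body and cytoplasm and from -0.0345 to 0.324 between polysome and total RNA, with 0.495 in Ago2 KO, 0.17 and 0.199 at day 3 and the others between P-body and cytoplasm under 0.1. The study describes sorting particles out of the same pelleted material that, unsorted, served as cytoplasm. It also took total RNA from the lysates used for polysomes. Fractions are thus paired by design, which the fits without a block ignore. Those fits were kept because no label says that equal numbers mark a shared culture, and not every pair deviated together. With the block, calls over all genes in Ago2 KO were 2565 enriched and 1613 depleted, against 919 and 176. In naive P-bodies these calls were 3402 and 2338, against 3527 and 2414. Depth limits Psmb8 in naive cells, Psmb9 and Psmb11, which have few reads.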
